A study of Mus musculus with 18 samples.

Results

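The genes described here are 10 ion transporters and channels of the colon epithelium, *Atp12a*, *Scnn1a*, *Scnn1b*, *Scnn1g*, *Slc9a3*, *Slc9a2*, *Slc26a3*, *Cftr*, *Slc12a2* and *Best2*, found by symbol among the 24047 genes of the count table, and all 10 were present. They were chosen by name with earlier results of these data known. *Atp12a* in particular had already been seen among the deepest falls in CONV-WT and COLONIZED-WT against GF-WT, so its values in those comparisons are given as a description with no test, and the counts there cover the other 9 genes. The other 9 were selected on unrecorded grounds with the same results in view, so their counts are no independent evidence either.

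RNA was sequenced from colon crypt epithelial cells of C57BL/6 mice in 6 groups of 3 libraries, 18 in all. Wild type (WT) mice and mice labelled Ern2-/-, for the gene of the epithelial ER stress sensor IRE1β, were studied in 3 microbial states. They were germ-free (GF), were GF and then colonized for 14 days (COLONIZED), or were raised conventionally with microbes (CONV). Colonization used a cecal homogenate from WT specific pathogen-free mice, and the origin of the CONV microbes is not in the labels. The labels name no Cre driver for the allele, and every COLONIZED mouse received WT microbes whatever its own genotype. Colonized mice gave crypts from the distal colon left after other sampling, and the position for the other groups is not in the labels. Ages and sexes are not given in the labels, and the labels do not say that the libraries of a group came from separate animals, so the p-values measure the spread between these libraries only.

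Library totals ran from 5865619 to 23154481 counts, and CONV-WT replicate 3 and CONV-Ern2-/- replicates 2 and 3 were the shallowest, at 5865619 to 8198204 counts. *Ern2* itself ran from 1909 to 3100 normalized counts in the libraries labelled WT, and 3 libraries labelled Ern2-/- (replicates 1 and 3 of GF-Ern2-/-, together with replicate 1 of COLONIZED-Ern2-/-) held 2877, 3336 and 2567, so their counts went against the label. The other 6 libraries labelled Ern2-/- held 386 (GF-Ern2-/- replicate 2), 998 to 1622 (CONV-Ern2-/-), and 1325 and 1885 (COLONIZED-Ern2-/- replicates 2 and 3). The 1885 lies just below the lowest library labelled WT, and the fits without the 3 libraries above kept that library. CONV-WT replicate 3 stood apart from its group in summed goblet cell markers, at 73635 normalized counts against 453108 and 410009. Y-linked transcripts summed to 92.6 to 210.4 CPM in 1 CONV-WT library, all 3 CONV-Ern2-/- libraries and 2 libraries each of COLONIZED-WT, GF-Ern2-/- and COLONIZED-Ern2-/-, and to at most 0.134 CPM in the others, which include every GF-WT library. All 6 epithelial markers were detected in every group (summed level 137251 to 207357), and the mesenchymal markers summed to at most 225 normalized counts.

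The colon surface absorbs sodium chloride and water and secretes bicarbonate and potassium. Sodium enters through the apical sodium-proton exchangers encoded by *Slc9a3* (NHE3) and *Slc9a2* (NHE2), coupled to the chloride-bicarbonate exchanger encoded by *Slc26a3* (DRA), and, mainly in the distal colon and under aldosterone, through the epithelial sodium channel ENaC, built from the subunits encoded by *Scnn1a*, *Scnn1b* and *Scnn1g*. *Atp12a* encodes the colonic proton-potassium pump of the apical membrane, which recovers potassium. Fluid secretion runs the other way, with chloride taken up basolaterally by the cotransporter NKCC1 (*Slc12a2*) and released through the apical channel CFTR, while *Best2* encodes a bicarbonate channel of colonic goblet cells.

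*Scnn1b* and *Scnn1g* lie on the same strand of mouse chromosome 7. In the GRCm38 (mm10) annotation of GENCODE, *Scnn1g* spans chr7:121734479-121768475 and *Scnn1b* chr7:121865038-121918514, each with 13 exon blocks. *Slc9a3* spans chr13:74121457-74169442 with 18 exon blocks, and *Cftr* spans chr6:18170687-18322768 with 29. The 250 bases before the RefSeq start site are shown for 3 genes with lower levels in crypts exposed to microbes (*Scnn1g*, *Scnn1b*, *Slc9a3*) and for *Cftr*, which was not called in any comparison with all its libraries and no covariate, to set their sequences side by side. They are from RefSeq on GRCm38.p6, read 5′ to 3′ on the plus strand, with GC boxes (GGGCGG on either strand) in capitals. The RefSeq start of *Slc9a3* lies 44 bases from the GENCODE gene start.
Scnn1g, chr7:121734229-121734478: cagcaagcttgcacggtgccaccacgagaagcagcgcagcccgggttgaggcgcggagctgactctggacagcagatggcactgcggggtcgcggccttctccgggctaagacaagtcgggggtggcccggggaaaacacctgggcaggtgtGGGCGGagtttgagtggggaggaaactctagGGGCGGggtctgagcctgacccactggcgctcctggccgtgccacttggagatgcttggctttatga
Scnn1b, chr7:121864788-121865037: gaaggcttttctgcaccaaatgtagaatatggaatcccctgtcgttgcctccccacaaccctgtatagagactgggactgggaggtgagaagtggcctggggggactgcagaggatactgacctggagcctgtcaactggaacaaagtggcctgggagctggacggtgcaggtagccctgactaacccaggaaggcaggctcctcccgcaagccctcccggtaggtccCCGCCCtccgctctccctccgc
Slc9a3, chr13:74121163-74121412: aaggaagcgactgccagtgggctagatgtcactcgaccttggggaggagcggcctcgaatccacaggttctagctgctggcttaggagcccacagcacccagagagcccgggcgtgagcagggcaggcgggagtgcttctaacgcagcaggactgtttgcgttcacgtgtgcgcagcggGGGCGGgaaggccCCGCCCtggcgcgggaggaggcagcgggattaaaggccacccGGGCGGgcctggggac
Cftr, chr6:18170437-18170686: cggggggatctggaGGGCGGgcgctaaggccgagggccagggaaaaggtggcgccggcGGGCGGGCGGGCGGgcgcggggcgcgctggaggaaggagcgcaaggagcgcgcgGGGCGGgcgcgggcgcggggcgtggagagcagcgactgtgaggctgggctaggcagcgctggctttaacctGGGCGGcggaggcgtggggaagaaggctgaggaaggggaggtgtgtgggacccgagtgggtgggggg
A GC box occurs in 32.7% of the 32851 mouse windows of this length. The *Cftr* window held 6, the *Slc9a3* window 3, the *Scnn1g* window 2 and the *Scnn1b* window 1. The *Slc26a3* window, not shown, held 0, and its RefSeq start lies 47348 bases from the GENCODE gene start. The palindromic steroid receptor element, searched on both strands because aldosterone and glucocorticoids act on ENaC, was in none of these windows and is in 0.387% of all windows. These letters are a description of the windows and show no bound site.

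Expression levels below are counts divided by DESeq2 size factors over all 18 libraries (normalized counts), and fold changes are log2 values with their SE from a DESeq2 Wald test on the 6 libraries compared. A gene was called when its Benjamini-Hochberg adjusted p over all genes tested was under 0.01. The edgeR quasi-likelihood test was run beside it and called far fewer genes, so its adjusted p is given beside each DESeq2 call on the 10 genes with all libraries, and as a range for the other genes.

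To ask what microbes change in WT crypts, each WT group with microbes was set against GF-WT. The 3 ENaC subunit genes and *Slc9a3* were called lower with both kinds of microbial exposure, with the ENaC γ subunit near the detection limit. *Slc9a2*, *Slc26a3* and *Best2* were called lower in CONV-WT and missed the threshold in COLONIZED-WT, and the chloride secretion genes *Cftr* and *Slc12a2* were called in neither. In CONV-WT, 7 of 9 genes were called, all lower, where 11.0% of 13874 genes tested were called and 5.28% were called lower. In COLONIZED-WT, 4 of 9 were called, all lower, where 18.3% of 13635 genes were called and 8.97% were called lower. The median log2 fold change of the 9 genes was -1.93 in CONV-WT and -1.49 in COLONIZED-WT, and that of all genes tested was -0.0011 and -0.013. By edgeR, 0 of the 9 passed 0.01 in CONV-WT and 1 in COLONIZED-WT, and 5 passed 0.05 in each. Over all genes edgeR called 22 in CONV-WT and 630 in COLONIZED-WT. When library totals entered the fit as a covariate, 1 of the 7 lower calls in CONV-WT was kept (*Best2*) and *Slc12a2* was called higher. With it the log2 fold change of the lost calls was -7.24 (*Scnn1g*), -2.77 (*Slc9a3*), -2.25 (*Slc26a3*), -1.41 (*Slc9a2*), -0.92 (*Scnn1a*) and -0.77 (*Scnn1b*). Without the covariate these were -6.82, -3.80, -1.90, -2.04, -1.46 and -1.93, in the same order. With the Y-linked pattern, which no GF-WT library and 2 of 3 COLONIZED-WT libraries had, as a covariate, 1 of the 4 calls in COLONIZED-WT was kept (*Scnn1g*, adjusted p 0.00309), and *Scnn1a* (0.068), *Slc9a3* (0.168) and *Scnn1b* (0.286) were lost. Over all 14 alternatives, log2 fold changes there ran from -1.24 to -0.84 (*Scnn1a*), -3.98 to -2.31 (*Slc9a3*) and -1.43 to -0.84 (*Scnn1b*).

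*Atp12a*, the colonic proton-potassium pump, stood at 8054, 4860.3 and 6963 normalized counts in the GF-WT libraries, at 57.04, 452 and 70.6 in COLONIZED-WT and at 58.5, 84.9 and 25.6 in CONV-WT. Every library with microbes was below every GF-WT library, and COLONIZED-WT replicate 2 was the highest of those with microbes. These values correspond to a log2 fold change of -6.86 (SE 0.42) in CONV-WT and -5.09 (SE 0.99) in COLONIZED-WT, which chose the gene and are not tested here.

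*Scnn1g*, the γ subunit of ENaC, was at 161, 19.6 and 74.3 normalized counts in GF-WT and all but disappeared with microbes. COLONIZED-WT libraries held 0.713, 1.47 and 1.59 normalized counts, and CONV-WT libraries 0, 1.98 and 0. The groups did not overlap, and the raw counts behind them were 344 in GF-WT, 5 in COLONIZED-WT and 2 in CONV-WT, summed over 3 libraries. From these sums GF-WT was 66.4-fold above COLONIZED-WT (exact 95% interval 28.2 to 206) and 108-fold above CONV-WT (29.7 to 896), intervals that cover counting error only. The 0 counts in CONV-WT replicates 1 and 3 allow up to 2.83 and 5.48 normalized counts. The gene was called in both comparisons, with adjusted p 7.42e-06 in CONV-WT (edgeR 0.0299) and 9.29e-10 in COLONIZED-WT (edgeR 0.00812).

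*Scnn1b*, the β subunit, was lower too but by much less. It was at 227, 112 and 279.8 normalized counts in GF-WT, at 65.6, 94.8 and 121 in COLONIZED-WT and at 58.5, 83.0 and 20.1 in CONV-WT. CONV-WT lay below GF-WT throughout, while COLONIZED-WT overlapped it through GF-WT replicate 2. The log2 fold change was -1.93 (SE 0.55, adjusted p 0.00502, edgeR 0.0736) in CONV-WT and -1.13 (SE 0.35, adjusted p 0.0075, edgeR 0.0545) in COLONIZED-WT. In CONV-WT the call was lost without GF-WT replicate 1, GF-WT replicate 3 or CONV-WT replicate 1 (adjusted p up to 0.0861), and in COLONIZED-WT it held in 1 of 6 such fits, the one without GF-WT replicate 2 (adjusted p up to 0.0989).

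*Scnn1a*, the α subunit, is the most abundant of the ENaC genes here, with a GF-WT level per kilobase of exon of 820.2 normalized counts against 78.3 for *Scnn1b* and 28.4 for *Scnn1g*. Its libraries held 3208, 2809 and 4151 normalized counts in GF-WT, against 1237, 1876 and 1604 in COLONIZED-WT and against 1664, 1134 and 908 in CONV-WT, with no overlap with GF-WT in either. It fell by 1.46 (SE 0.30, adjusted p 4.77e-05, edgeR 0.0316) in CONV-WT and fell by 1.10 (SE 0.21, adjusted p 2.71e-06, edgeR 0.0107) in COLONIZED-WT on the log2 scale. All 3 subunit genes were lower, *Scnn1g* by the widest margin.

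**Figure D1:**
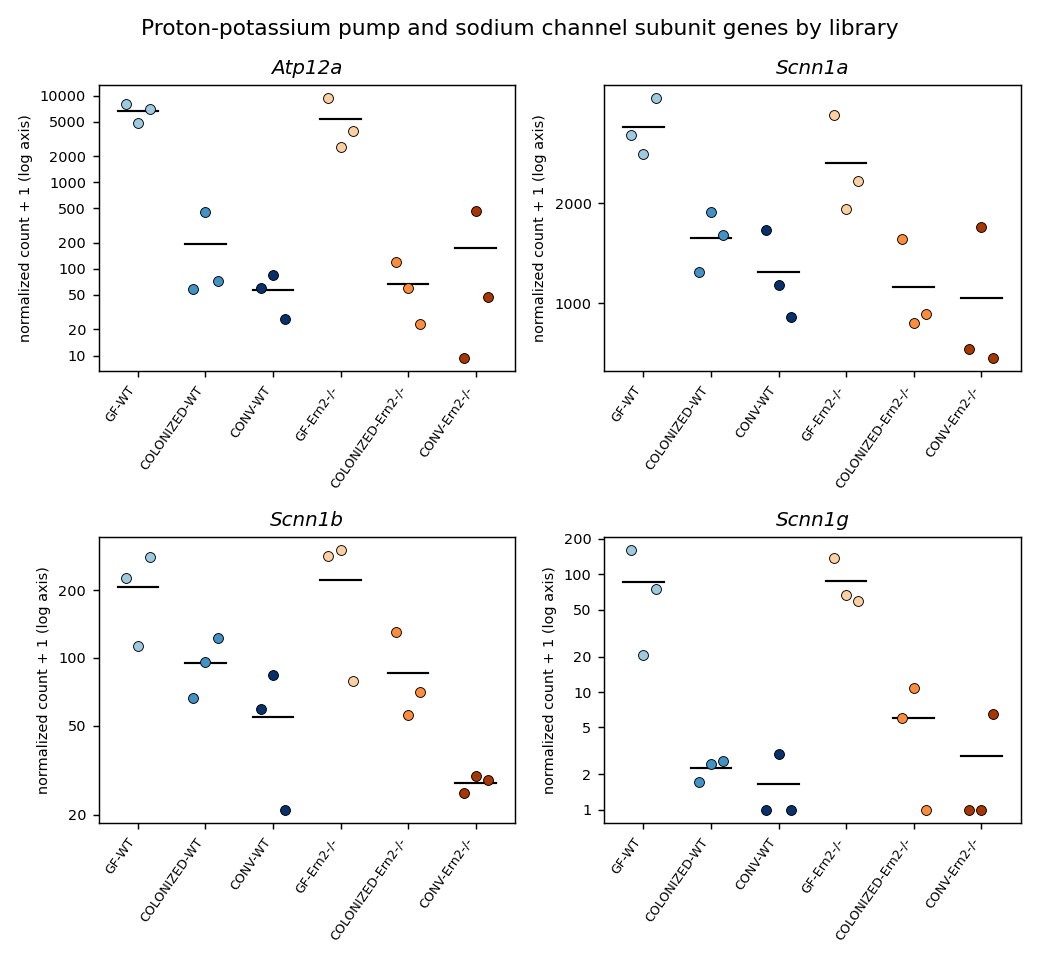
Normalized counts plus 1 (log axis) of *Atp12a* and the ENaC subunit genes in each of the 18 libraries (points) by group, with the group mean as a bar. All 12 libraries with microbes lie below all 6 GF libraries for *Atp12a* and *Scnn1g*, and *Scnn1g* is at or near 0 in CONV-WT.

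*Slc9a3*, the main apical sodium-proton exchanger, spread widely in GF-WT, at 1133, 1878 and 6365 normalized counts, and stood at 114, 398 and 280.2 in COLONIZED-WT and at 203, 320.0 and 155 in CONV-WT. All 6 libraries with microbes were below the lowest GF-WT library. The log2 fold change was -3.80 (SE 0.63, adjusted p 1.19e-07, edgeR 0.0314) in CONV-WT and -3.56 (SE 0.88, adjusted p 0.000606, edgeR 0.0147) in COLONIZED-WT. Without 1 library it ran from -4.20 to -2.74 in CONV-WT and -3.98 to -2.50 in COLONIZED-WT, called in all 6 fits of each.

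*Slc9a2*, the second apical sodium-proton exchanger, was at 3749, 6639.6 and 10253 normalized counts in GF-WT, at 1496, 2658 and 3151 in COLONIZED-WT and at 1909.6, 1804 and 1346 in CONV-WT, again without overlap. It was called in CONV-WT (log2 fold change -2.04, SE 0.39, adjusted p 9.04e-06, edgeR 0.0315) and missed the threshold in COLONIZED-WT (-1.49, SE 0.49, adjusted p 0.0126, edgeR 0.0308). In COLONIZED-WT it was called in 4 of 6 fits without 1 library, with adjusted p from 7.09e-08 (without GF-WT replicate 1) to 0.082.

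*Slc26a3*, the chloride-bicarbonate exchanger, was at 5167, 7707 and 18062 normalized counts in GF-WT, at 1515, 2492 and 5997 in COLONIZED-WT and at 2392, 2179.8 and 3800.2 in CONV-WT. CONV-WT lay below GF-WT, and COLONIZED-WT replicate 3 overlapped it. The gene was called in CONV-WT (-1.90, SE 0.49, adjusted p 0.00181, edgeR 0.0639), where only 2 of 6 fits that each left out 1 library kept the call, with adjusted p up to 0.0292 without CONV-WT replicate 2. It was not called in COLONIZED-WT (-1.63, SE 0.81, adjusted p 0.117).

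*Best2*, the goblet cell bicarbonate channel, was at 2724, 1154 and 1345 normalized counts in GF-WT, at 322, 834 and 442 in COLONIZED-WT and at 267, 147 and 60.3 in CONV-WT, with no overlap between any pair of these groups. It was called in CONV-WT (-3.46, SE 0.56, adjusted p 6.25e-08, edgeR 0.0264) and missed the threshold in COLONIZED-WT (-1.70, SE 0.55, adjusted p 0.0109, edgeR 0.0266). In COLONIZED-WT it was called in 3 of 6 fits without 1 library, with adjusted p from 2.69e-07 (without COLONIZED-WT replicate 2) to 0.0926. The summed goblet cell markers were 175497 to 249708 in GF-WT, 255912 to 333829 in COLONIZED-WT and 73635 to 453108 in CONV-WT. The members of that sum differed in direction. By group mean 5 of the 8 (*Muc2*, *Agr2*, *Spink4*, *Spdef* and *Clca1*) were above GF-WT in both groups with microbes, *Zg16* and *Tff3* were below it in both, and *Fcgbp* was below it in COLONIZED-WT and above it in CONV-WT. *Zg16*, a mucus lectin gene, had group means of 54461, 10940.3 and 4525 normalized counts in GF-WT, COLONIZED-WT and CONV-WT, and *Tff3* 11060.4, 4792 and 3691, whereas the mucin gene *Muc2* had 50469, 147217 and 147625. The part of goblet cells in the *Best2* result was not tested.

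*Cftr*, the apical chloride channel, held 4309.7, 3968 and 3253 normalized counts in GF-WT, against 3629, 3482 and 4303 in COLONIZED-WT and against 4379, 3951 and 1090.2 in CONV-WT. The log2 fold change was -0.0049 (95% interval -0.31 to 0.30) in COLONIZED-WT and -0.30 (-1.27 to 0.66) in CONV-WT, where CONV-WT replicate 3 was the low library. *Slc12a2*, the basolateral cotransporter, shared that low library, at 8938, 8090.4 and 7419 normalized counts in GF-WT, at 10376, 8155 and 10220.3 in COLONIZED-WT and at 11119, 11528 and 2120.1 in CONV-WT. Its log2 fold change was 0.24 (-0.04 to 0.53) in COLONIZED-WT and 0.0073 (-1.10 to 1.11) in CONV-WT, and without CONV-WT replicate 3 it was called higher in CONV-WT, at 0.47 with adjusted p 0.00395.

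**Figure D2:**
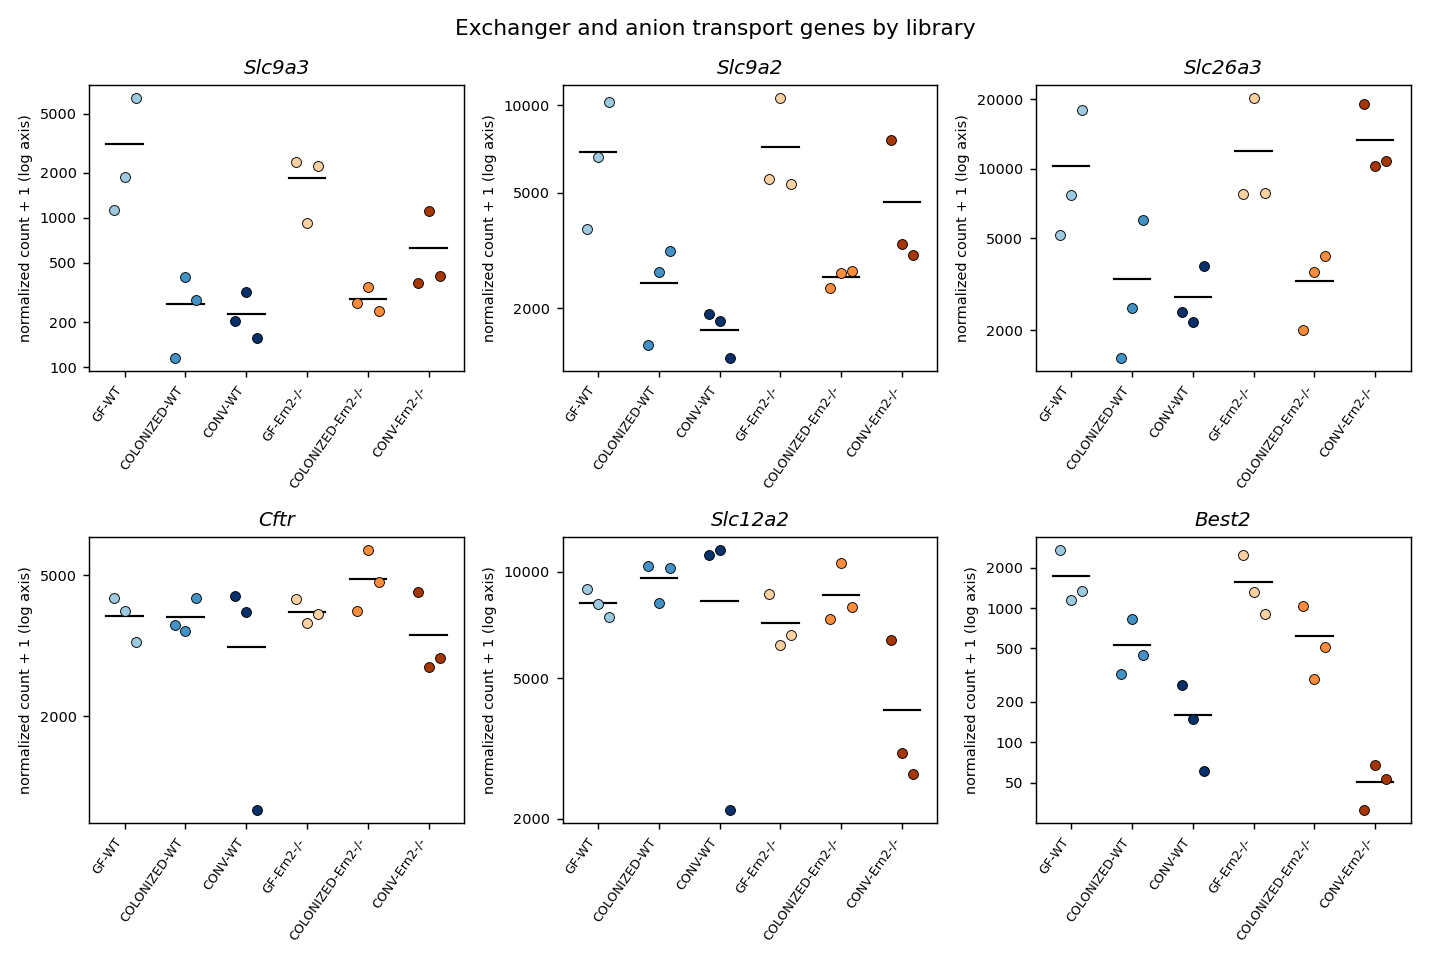
Normalized counts plus 1 (log axis) of the exchanger and anion transport genes in each library (points) by group, with the group mean as a bar. *Slc9a3*, *Slc9a2* and *Slc26a3* have lower means in the WT groups with microbes than in GF-WT and *Slc26a3* in CONV-Ern2-/- lies within the range of GF-Ern2-/-. CONV-WT replicate 3 is the low point of *Cftr* (1090.2) and *Slc12a2* (2120.1).

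*Scnn1g* was too low for an adjusted p between the groups with microbes, and none of the other 9 genes was called between CONV-WT and COLONIZED-WT by DESeq2 (0.119% of 13458 genes) or by edgeR, and 2 had an unadjusted p under 0.05. Over all genes edgeR called 0 there. *Best2* had no overlap between these groups, with a log2 fold change of -1.76 (95% interval -2.89 to -0.63, adjusted p 0.15). It was called without CONV-WT replicate 1 (adjusted p 0.00599).

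To ask whether the same genes respond in the libraries labelled Ern2-/-, CONV-Ern2-/- and COLONIZED-Ern2-/- were compared with GF-Ern2-/-. *Scnn1g* was called lower in both. *Scnn1b* and *Best2* were called lower in CONV-Ern2-/-, and *Atp12a*, *Scnn1a* and the 3 exchanger genes in COLONIZED-Ern2-/-. In CONV-Ern2-/-, 3 of 10 genes were called, all lower, where 4.33% of 13404 genes were called and 2.77% were called lower. In COLONIZED-Ern2-/-, 6 of 10 were called, all lower, where 7.17% of 13943 genes were called and 3.57% were called lower. The median log2 fold change of the 10 genes was -1.47 and -1.44, and that of all genes tested was -0.0077 and -0.022. By edgeR 0 passed 0.01 in either comparison, and 3 and 4 passed 0.05. Over all genes edgeR called 4 in CONV-Ern2-/- and 27 in COLONIZED-Ern2-/-. When library totals entered the fit, the CONV-Ern2-/- calls of *Scnn1b* (adjusted p 0.0525) and *Scnn1g* (0.0242) were lost, *Best2* was kept and *Atp12a* was called lower (0.00951). Over all 15 alternatives the log2 fold change ran from -3.52 to -2.75 for *Scnn1b* and -8.28 to -5.12 for *Scnn1g*.

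*Atp12a* was at 9392, 2576 and 3926 normalized counts in GF-Ern2-/-, at 119, 59.4 and 22.1 in COLONIZED-Ern2-/- and at 8.35, 467 and 46.9 in CONV-Ern2-/-. All 6 libraries with microbes were below all 3 without. The pump gene was called in COLONIZED-Ern2-/- (-6.31, SE 0.83, adjusted p 1.02e-11, edgeR 0.0145) and not in CONV-Ern2-/- (-4.94, SE 1.42, adjusted p 0.0108), where CONV-Ern2-/- replicate 2 was the high library and the adjusted p without it was 1.4e-10. That library also had the highest summed markers of distal colon position in its group, at 1824 normalized counts against 168 and 141. *Atp12a* was also called without CONV-Ern2-/- replicate 1 (adjusted p 0.00342). Over the 6 fits without 1 library its log2 fold change in CONV-Ern2-/- ran from -7.64 to -4.24.

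*Scnn1g* was at 136, 65.2 and 58.4 normalized counts in GF-Ern2-/-, at 4.98, 9.90 and 0 in COLONIZED-Ern2-/- and at 0, 0 and 5.52 in CONV-Ern2-/-. Raw counts summed to 304, 18 and 2. GF-Ern2-/- was 18.0-fold above COLONIZED-Ern2-/- (exact 95% interval 11.2 to 30.8) and 81.6-fold above CONV-Ern2-/- (22.4 to 677), for counting error only. The 0 counts allow up to 3.01 normalized counts in COLONIZED-Ern2-/- replicate 3 and up to 3.13 and 6.67 in CONV-Ern2-/- replicates 1 and 2. It was called in COLONIZED-Ern2-/- (adjusted p 1.45e-07, edgeR 0.0300) and in CONV-Ern2-/- (adjusted p 5.71e-06, edgeR 0.0281). Its log2 fold change was -4.11 (SE 0.67) and -6.17 (SE 1.13). Once the libraries whose *Ern2* counts went against the label were left out, which leaves 1 GF-Ern2-/- library, it was -3.74 (SE 4.10, adjusted p 0.589) and -5.25 (SE 4.07, adjusted p 0.58), and both calls were lost.

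*Scnn1b* was at 283, 302 and 78.2 normalized counts in GF-Ern2-/-, at 129, 54.9 and 69.2 in COLONIZED-Ern2-/- and at 24.0, 28.9 and 27.6 in CONV-Ern2-/-, the lowest mean of any group. It was called in CONV-Ern2-/- (-3.06, SE 0.53, adjusted p 1.35e-06, edgeR 0.0347) and not in COLONIZED-Ern2-/- (-1.39, SE 0.50, adjusted p 0.0462), which overlapped GF-Ern2-/-. *Scnn1a* was at 3692, 1924 and 2334 in GF-Ern2-/-, at 1561, 871 and 924 in COLONIZED-Ern2-/- and at 725, 1689 and 682 in CONV-Ern2-/-. It was called in COLONIZED-Ern2-/- (-1.25, SE 0.32, adjusted p 0.00206, edgeR 0.0576), with the call kept in 3 of 6 fits without 1 library, and missed the threshold in CONV-Ern2-/- (-1.37, SE 0.40, adjusted p 0.0122), where it was called without CONV-Ern2-/- replicate 2 (adjusted p 4.38e-06) or GF-Ern2-/- replicate 2 (0.00526).

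Of the exchanger genes, all 3 were called lower in COLONIZED-Ern2-/- and none was called in CONV-Ern2-/- against GF-Ern2-/-. *Slc26a3* held 7779, 20296 and 7836 normalized counts in GF-Ern2-/-, 2014, 3592 and 4177 in COLONIZED-Ern2-/- and 19012, 10327 and 10791 in CONV-Ern2-/-. It was called lower in COLONIZED-Ern2-/- (-1.89, SE 0.41, adjusted p 0.00015, edgeR 0.0504), while CONV-Ern2-/- overlapped GF-Ern2-/- (0.16, 95% interval -0.65 to 0.96, adjusted p 0.896). *Slc9a3* was at 2380.3, 919 and 2237 in GF-Ern2-/-, at 268, 346 and 237 in COLONIZED-Ern2-/- (-2.70, SE 0.35, adjusted p 5.29e-12, edgeR 0.0153) and at 367, 1109 and 406 in CONV-Ern2-/- (-1.57, SE 0.47, adjusted p 0.0175), and was called in the latter without CONV-Ern2-/- replicate 2 (adjusted p 2.07e-05) or GF-Ern2-/- replicate 2 (0.0011). *Slc9a2* was at 5555, 10592 and 5352, at 2354, 2634 and 2690.0 (-1.49, SE 0.29, adjusted p 1.86e-05, edgeR 0.0294) and at 7581, 3330.5 and 3054 (-0.62, SE 0.40, adjusted p 0.415), in the same order of groups.

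*Best2* was lowest of all in CONV-Ern2-/-, at 30.3, 66.7 and 52.4 normalized counts, against 2491, 1326 and 895 in GF-Ern2-/- and 1035, 296 and 508 in COLONIZED-Ern2-/-. The gene was called in CONV-Ern2-/- (-5.02, SE 0.44, adjusted p 1.66e-26, edgeR 0.0139) and not in COLONIZED-Ern2-/- (-1.36, SE 0.46, adjusted p 0.0314). The summed goblet cell markers were also lowest there, at 63335 to 72959 normalized counts in CONV-Ern2-/- against 84573 to 190161 in GF-Ern2-/- and 142598 to 272780 in COLONIZED-Ern2-/-, with none of the 8 at 0. By group mean 4 of the 8 (*Muc2*, *Tff3*, *Fcgbp* and *Zg16*) were lowest of these 3 groups in CONV-Ern2-/-, *Agr2*, *Clca1* and *Spdef* were lowest in GF-Ern2-/-, and *Spink4* was highest in CONV-Ern2-/-. Their part in the *Best2* result was not tested. *Cftr* and *Slc12a2* were called in neither. *Cftr* held 4298, 3667 and 3893 in GF-Ern2-/-, 3977, 5905 and 4773 in COLONIZED-Ern2-/- (0.30, 95% interval -0.10 to 0.70) and 4484, 2751 and 2930.3 in CONV-Ern2-/- (-0.23, -0.73 to 0.28). *Slc12a2* held 8633, 6206 and 6615, then 7328, 10553 and 7928 (0.26, -0.18 to 0.70) and 6412, 3064 and 2676 (-0.82, -1.51 to -0.13, adjusted p 0.146), and was called in CONV-Ern2-/- without replicate 1 of that group (adjusted p 6.59e-06).

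**Figure D3:**
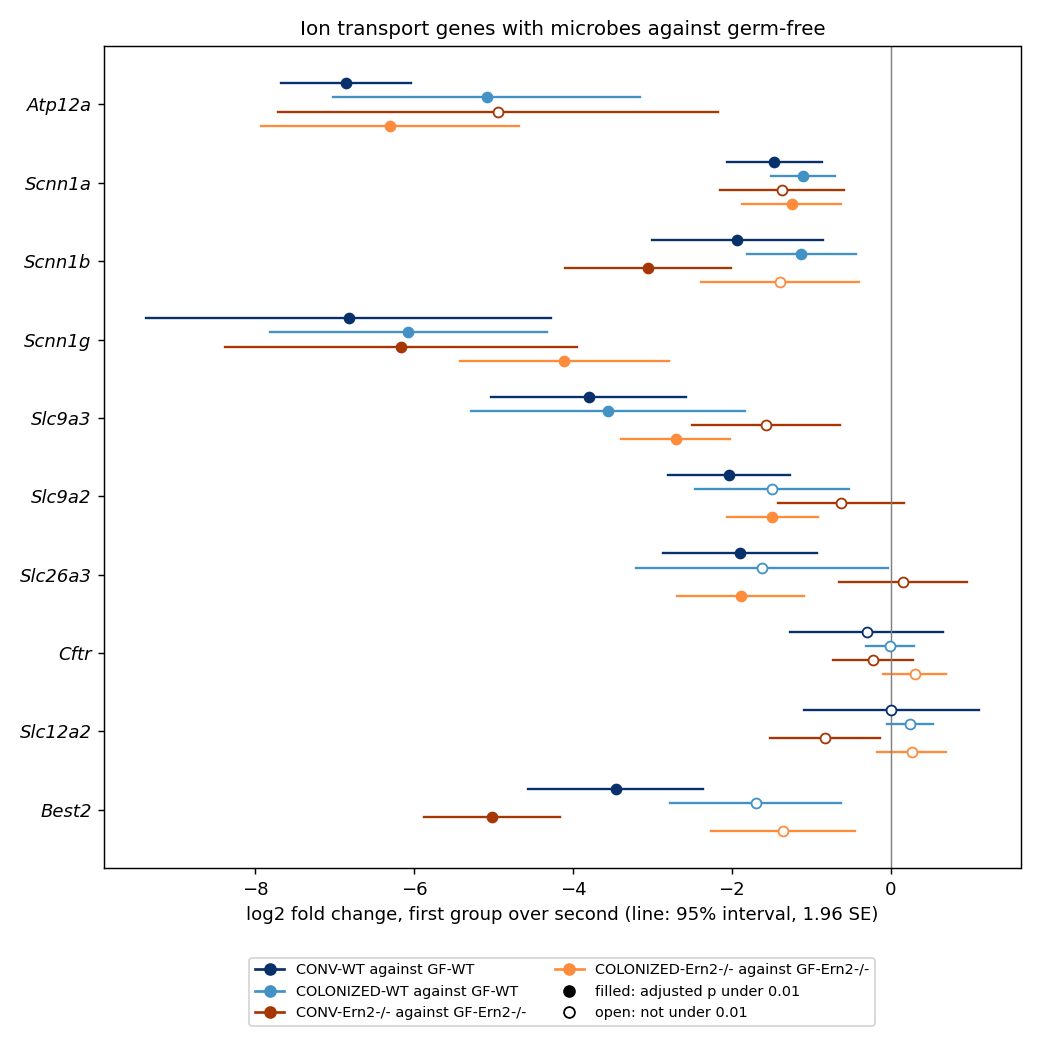
Log2 fold change of each gene against the GF group of the same genotype label, with 95% intervals and filled points for adjusted p under 0.01. The points of *Atp12a* in CONV-WT and COLONIZED-WT chose that gene and are a description. *Cftr* and *Slc12a2* lie between -0.82 (*Slc12a2* in CONV-Ern2-/-) and 0.30 with open points, and *Slc26a3* in CONV-Ern2-/- (0.16) lies apart from its other points.

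CONV-Ern2-/- and COLONIZED-Ern2-/- share the genotype label and differ in conventional raising against WT microbes for 14 days. They also differed in library totals (5865619 to 15419844 against 14046576 to 20231830 counts) and in the Y-linked pattern (3 against 2 of 3 libraries). Distal marker sums were 141 to 1824 against 1509 to 4452 normalized counts, and COLONIZED-Ern2-/- replicate 1 held *Ern2* counts against its label. The part of microbe source alone was not tested. Between these groups 4 of 10 genes were called, where 8.59% of 13098 genes were called. *Slc26a3* was higher in CONV-Ern2-/-, and *Best2*, *Scnn1b* and *Slc12a2* were lower. *Slc26a3* was higher by 2.04 on the log2 scale (SE 0.32, adjusted p 2.17e-08, edgeR 0.0184) and *Best2* fell by 3.65 (SE 0.45, adjusted p 4.13e-13, edgeR 0.0132), and both kept their calls in all 6 fits without 1 library. *Scnn1b* (-1.67, SE 0.46, adjusted p 0.00422, edgeR 0.0387) and *Slc12a2* (-1.08, SE 0.32, adjusted p 0.00962, edgeR 0.0725) kept theirs in 1 of 6 each. *Slc9a3* (1.15, SE 0.39, adjusted p 0.0267, edgeR 0.0978) and *Slc9a2* (0.87, SE 0.32, adjusted p 0.0453, edgeR 0.114) did not pass the threshold, although their libraries did not overlap.

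Genotype labels were then compared within each microbial state. In CONV mice, 1 of 10 genes was called, where 3.03% of 12625 genes were called. That gene was *Slc26a3*, at 19012, 10327 and 10791 normalized counts in CONV-Ern2-/- and 2392, 2179.8 and 3800.2 in CONV-WT, a difference of 2.26 on the log2 scale (SE 0.36, adjusted p 1.66e-07) with no overlap. The call held in all 6 fits without 1 library and not by edgeR (adjusted p 0.0617), which called 0 genes of the whole table in this comparison. *Slc9a2* (1.47, SE 0.41, adjusted p 0.0102) and *Slc9a3* (1.47, SE 0.51, adjusted p 0.0605) were also above CONV-WT in every library without passing the threshold. Without CONV-WT replicate 3, 4 genes were called, with *Slc9a2* higher (adjusted p 0.00767) and *Best2* (0.000126) and *Slc12a2* (0.0012) lower in CONV-Ern2-/-.

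In GF mice, DESeq2 called 0 of 10 genes (0.0349% of 17168 genes were called), none had an unadjusted p under 0.05 and edgeR called 0 of 10 and 0 of all genes. The differences ran from -0.76 (*Slc9a3*, 95% interval -2.41 to 0.88) to 0.22 (*Slc26a3*, -0.74 to 1.18), and the groups overlapped for all 10 genes. *Atp12a* was called lower in GF-Ern2-/- (-1.34, adjusted p 0.0024) once GF-Ern2-/- replicates 1 and 3 were left out, which rests on 1 GF-Ern2-/- library assumed to vary like the others. In COLONIZED mice, DESeq2 and edgeR called 0 of 10 (1.37% of 11960 genes were called by DESeq2 and 1 gene by edgeR), and 2 had an unadjusted p under 0.05. *Scnn1a* differed by -0.50 (95% interval -0.96 to -0.03, adjusted p 0.188) and was called without COLONIZED-Ern2-/- replicate 1 (adjusted p 0.00134).

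**Figure D4:**
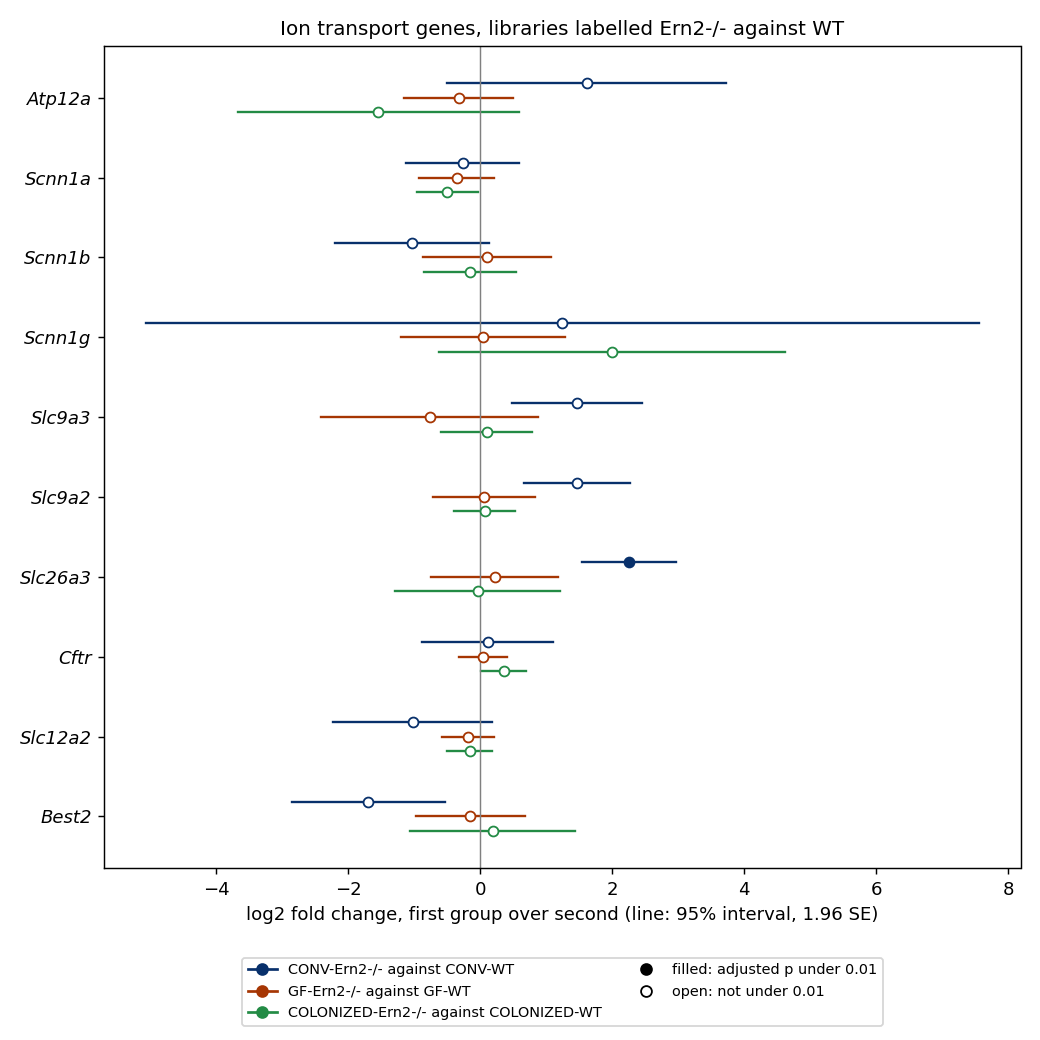
Log2 fold change of each gene in libraries labelled Ern2-/- against WT within the CONV, GF and COLONIZED states, with 95% intervals. Only *Slc26a3* in the CONV state is filled (adjusted p under 0.01), at 2.26.

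Whether the response to microbes itself differed between genotype labels was tested as an interaction. For CONV and GF, DESeq2 and edgeR called 0 of 10 genes (0.177% of 13027 genes were called by DESeq2 and 0 genes by edgeR), and 4 had an unadjusted p under 0.05. The interaction of *Slc26a3* was 2.04 on the log2 scale (95% interval 0.66 to 3.43, adjusted p 0.205), that of *Slc9a3* 2.23 (0.51 to 3.94, adjusted p 0.317) and that of *Best2* -1.55 (-3.07 to -0.03, adjusted p 0.561). For COLONIZED and GF, 0 of 10 were called by either tool (0.0280% of 17884 genes by DESeq2 and 0 genes by edgeR), with none at an unadjusted p under 0.05. The genotype label over all 3 states called 0 of 10 by either tool (1.63% of 14027 genes by DESeq2 and 41 genes by edgeR), with 1 at an unadjusted p under 0.05. *Slc26a3* differed there by 0.79 (95% interval 0.07 to 1.50, adjusted p 0.207) and was called at 1.30 (adjusted p 0.00866) without the 3 libraries whose *Ern2* counts went against the label.

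Ordered by group mean, the 8 genes that fell in CONV-WT had both GF groups on top, except *Slc26a3*, whose highest mean was in CONV-Ern2-/- (13377 ± 4886 normalized counts, SD, n = 3), followed by GF-Ern2-/- (11970.5 ± 7211) and GF-WT (10312 ± 6831), all overlapping. COLONIZED-WT (3335 ± 2357), COLONIZED-Ern2-/- (3261 ± 1119) and CONV-WT (2791 ± 881) followed and overlapped each other. *Atp12a* had a gap between GF-Ern2-/- (5298 ± 3609) and COLONIZED-WT (193 ± 224), and its 4 groups with microbes overlapped down to CONV-WT (56.3 ± 29.7). For *Best2* the gap lay between COLONIZED-WT (533 ± 268) and CONV-WT (158 ± 104), with CONV-Ern2-/- lowest (49.8 ± 18.3). *Cftr* ran from 4885 ± 969 in COLONIZED-Ern2-/- to 3140.1 ± 1788 in CONV-WT and *Slc12a2* from 9584 ± 1239.8 in COLONIZED-WT to 4051 ± 2054 in CONV-Ern2-/-, with every neighboring group overlapping. Per kilobase of exon, the highest group mean of the 10 genes was that of *Slc26a3* in CONV-Ern2-/- (2100.3 normalized counts) and the lowest that of *Scnn1g* in CONV-WT (0.22).

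Summed markers of surface colonocytes, the cells that carry NHE2, NHE3 and DRA, moved with the exchangers. The summed level of the 7 of 8 markers found was 114961 to 212321 normalized counts in GF-WT, 57184 to 103343 in COLONIZED-WT, 46429 to 51623 in CONV-WT, 118067 to 234801 in GF-Ern2-/-, 76349 to 85810 in COLONIZED-Ern2-/- and 121699 to 177644 in CONV-Ern2-/-, with no marker at 0 in any group. *Lypd8* was the most abundant in the sum, with a group mean of 113298 in GF-WT. By group mean, every marker was below GF of the same label in COLONIZED-WT, CONV-WT and COLONIZED-Ern2-/-. In CONV-Ern2-/-, *Krt20*, *Guca2a* and *Aqp8* were above GF-Ern2-/-, and *Lypd8*, *Car4*, *Mall* and *Ceacam20* were below it. Over the 18 libraries, which share this group structure, the Pearson r of log2 levels with that sum was 0.94 for *Slc9a2*, 0.86 for *Slc26a3*, 0.77 for *Slc9a3*, 0.62 for *Scnn1g*, 0.60 for *Atp12a*, 0.45 for *Scnn1a*, 0.44 for *Scnn1b*, 0.33 for *Best2*, 0.18 for *Cftr* and -0.13 for *Slc12a2*. In these bulk samples fewer cells of a type and less RNA per cell cannot be told apart, and the part of surface cells in the exchanger results was not tested. The 6 proliferation markers were higher in the COLONIZED groups than in GF, and overlapped GF in the CONV groups, with sums of 5270 to 8934 normalized counts in GF-WT, 13082 to 14801 in COLONIZED-WT, 8170 to 15884 in CONV-WT, 5625 to 8887 in GF-Ern2-/-, 14758 to 18107 in COLONIZED-Ern2-/- and 8153 to 12172 in CONV-Ern2-/-. The 4 tuft cell markers summed to 699 to 953 in GF-WT, 1469 to 2591 in COLONIZED-WT, 992 to 3277 in CONV-WT, 718 to 1445 in GF-Ern2-/-, 1562 to 3155 in COLONIZED-Ern2-/- and 2117 to 3143 in CONV-Ern2-/-. The 4 enteroendocrine markers summed to 1099 to 2677 in GF-WT, 2117 to 2881 in COLONIZED-WT and 1464 to 1914 in CONV-WT. In GF-Ern2-/- they summed to 692 to 1014, in COLONIZED-Ern2-/- to 1892 to 6063 and in CONV-Ern2-/- to 1533 to 2329. The 4 stem cell markers summed to 1648 to 2175 in GF-WT, 2225 to 2753 in COLONIZED-WT and 1565 to 3060 in CONV-WT. Their sums were 1124 to 2161 in GF-Ern2-/-, 1435 to 1633 in COLONIZED-Ern2-/- and 1031 to 1405 in CONV-Ern2-/-. No marker of these lists was at 0 in any group, and their part in the results was not tested. Markers of distal position (6 of 7 found) moved too, at 4321 to 8433 normalized counts in GF-WT, 2625 to 4674 in COLONIZED-WT, 794 to 3037 in CONV-WT, 4286 to 8714 in GF-Ern2-/-, 1509 to 4452 in COLONIZED-Ern2-/- and 141 to 1824 in CONV-Ern2-/-, with 3 of them at 0 in each CONV group and 1 in COLONIZED-WT. Replicate 2 of COLONIZED-WT, the highest of its group in *Atp12a*, had a distal sum of 4674 against 3037 and 2625. In CONV-Ern2-/-, replicate 2 was likewise highest in both, with 1824 against 168 and 141. In CONV-WT, replicate 2 was highest in *Atp12a* and replicate 1 in the distal sum (3037 against 1582 in replicate 2). *Atp12a*, *Best2* and the ENaC genes are known for distal expression, and the part of colon position in their results was not tested.

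**Figure D5:**
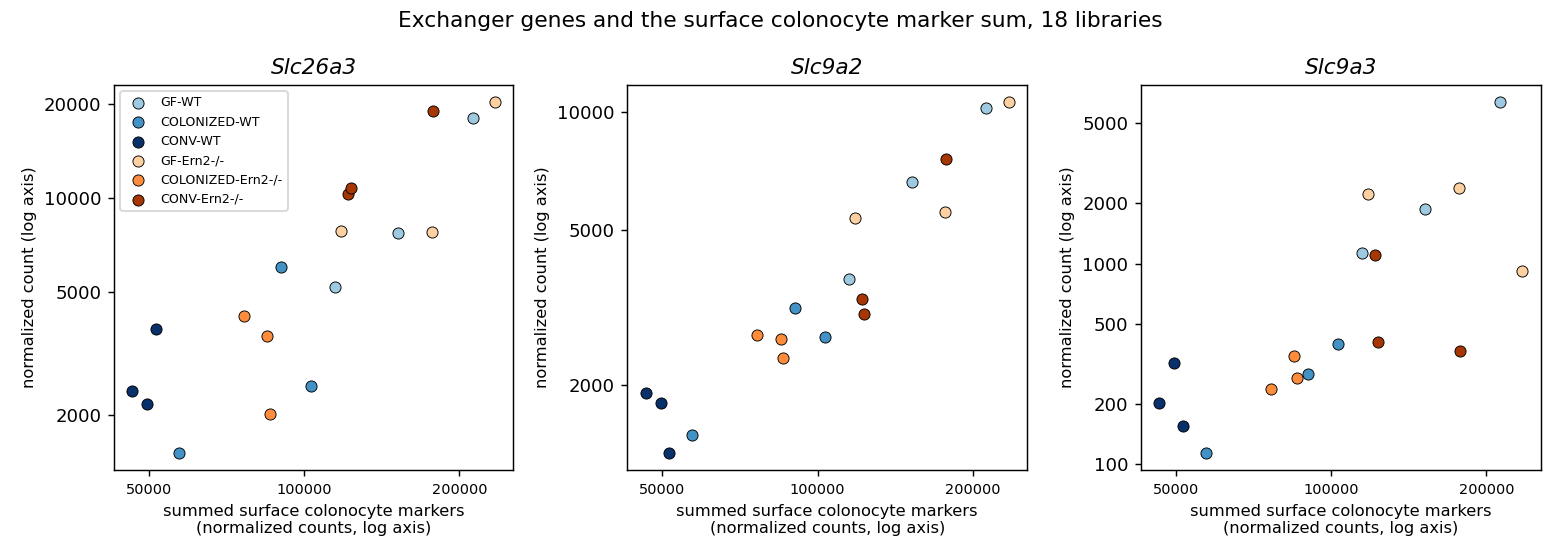
Normalized counts of *Slc26a3*, *Slc9a2* and *Slc9a3* against the summed surface colonocyte markers in the 18 libraries, both on log axes, colored by group. CONV-Ern2-/- libraries sit at marker sums of 121699 to 177644, among the GF libraries, and CONV-WT at 46429 to 51623.

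Among the genes themselves, over the 18 libraries, which share group and library depth, *Atp12a* had a Pearson r of 0.92 with *Scnn1a* and 0.87 with *Scnn1g* and *Slc9a3*, *Scnn1b* had 0.92 with *Best2*, *Slc9a2* had 0.87 with *Slc26a3*, and *Cftr* had 0.80 with *Slc12a2*. Of 10843 other genes with a mean of 50 or more, the 3 most like *Atp12a* were *Slc15a1* (r 0.97), *Kcnf1* (0.95) and *Nrap* (0.95). *Scnn1a* was most like *Kcnf1* (0.98), *Sun2* (0.91) and *Zxdc* (0.91), *Scnn1b* like *Ankrd22* (0.94), *Golph3l* (0.91) and *Cpq* (0.91), and *Scnn1g* like *Sowahc* (0.90), A430033K04Rik (0.89) and 2010106E10Rik (0.89). *Slc9a3* was most like *Cyp2d34* (0.95), *Igsf9* (0.93) and *Clcn2* (0.93), *Slc9a2* like *Unc5b* (0.97), *Cdhr5* (0.97) and *Cyp3a13* (0.96), and *Slc26a3* like *Lhfpl2* (0.96), *Nbr1* (0.95) and *Apob* (0.94). *Cftr* was most like *Sec63* (0.96), *Slc30a5* (0.95) and *Pigu* (0.95), *Slc12a2* like *Pitrm1* (0.95), *Thada* (0.95) and *Pomt2* (0.94), and *Best2* like *Casp14* (0.96), *Slc6a4* (0.96) and *Ankrd22* (0.95).

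The wider set of 58 other ion and water transport genes was tested in the same fits. In CONV-WT against GF-WT, 12 of 57 tested were called, 1 higher and 11 lower, where 11.0% of all genes tested were called and 5.28% were called lower, with a median log2 fold change of -0.36. *Fxyd4*, a regulator of the sodium pump in the distal colon, was at 1000.3 ± 714 normalized counts in GF-WT and 3.79 ± 0.15 in CONV-WT (SD, n = 3; -8.05, SE 0.78, adjusted p 3.14e-22 by DESeq2). In the CONV-WT libraries 3 counts equal 2.83 to 5.48 normalized counts, so that mean lies near the detection limit and the fold change is approximate. *Hsd11b2*, which shields the aldosterone receptor from glucocorticoids, fell by 2.59 (SE 0.37, adjusted p 5.79e-10), *Kcnk5*, a potassium channel, fell by 1.21 (adjusted p 1.14e-09) and *Car4*, a membrane carbonic anhydrase, fell by 3.11 (adjusted p 1.9e-07). By edgeR the adjusted p of these 4 genes was 0.0118 to 0.0287. The mineralocorticoid receptor gene *Nr3c2* (-1.03, adjusted p 0.0226), *Sgk1* (-0.55, adjusted p 0.509), *Nedd4l* (-0.24, adjusted p 0.672) and the ENaC-cleaving protease gene *Prss8* (-0.61, adjusted p 0.223) were not called.

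In COLONIZED-WT against GF-WT, 22 of 57 genes of that list were called, 7 higher and 15 lower, where 18.3% of all genes tested were called and 8.97% were called lower, with a median of -0.22. *Slc26a2*, a sulfate and chloride exchanger, fell by 1.74 (adjusted p 4.02e-12) and the chloride channel gene *Clcn2* fell by 1.24 (adjusted p 1.67e-06), and *Fxyd3* rose by 0.75 (adjusted p 7.42e-08). *Nr3c2* (-0.97, adjusted p 7.14e-05), *Hsd11b2* (-0.94, adjusted p 0.00422, held in 1 of 6 fits without 1 library) and *Sgk1*, the aldosterone-induced kinase (-1.14, adjusted p 7.84e-05), were called lower, and *Nedd4l* (-0.35, adjusted p 0.117) and *Prss8* (-0.10, adjusted p 0.561) were not called. By edgeR the adjusted p of the called genes named here was 0.0051 (*Fxyd3*) to 0.0551 (*Hsd11b2*).

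In the Ern2-/- groups, 7 of 55 listed genes were called in CONV-Ern2-/- against GF-Ern2-/-, all lower, and 11 of 56 in COLONIZED-Ern2-/-, 1 higher and 10 lower, with medians of -0.13 and -0.27, where 4.33% and 7.17% of all genes tested were called. *Fxyd4* again had the deepest fitted fall of the listed genes named here, at 814 ± 175 normalized counts in GF-Ern2-/-, 3.85 ± 3.88 in CONV-Ern2-/- (-8.13, adjusted p 1.66e-26) and 19.0 ± 14.9 in COLONIZED-Ern2-/- (-5.42, adjusted p 2.89e-07). In the CONV-Ern2-/- libraries 3 counts equal 3.13 to 8.28 normalized counts, so the -8.13 is approximate too. In CONV-Ern2-/-, *Hsd11b2* (-1.94, adjusted p 1.71e-10), *Kcnma1*, a potassium channel (-1.93, adjusted p 4.71e-05), *Atp1b1* (-1.13, adjusted p 0.000238, held in 4 of 6 fits without 1 library) and *Prss8* (-1.06, adjusted p 0.000302, held in 5 of 6) fell, with edgeR adjusted p from 0.00224 (*Fxyd4*) to 0.0719 (*Atp1b1*). There *Nr3c2* (-0.32, adjusted p 0.5), *Sgk1* (0.38, adjusted p 0.573) and *Nedd4l* (0.27, adjusted p 0.46) were not called. In COLONIZED-Ern2-/-, *Aqp8*, a surface water channel (-4.57, adjusted p 8.91e-26), *Car4* (-2.15, adjusted p 1.79e-16) and *Trpm6*, a magnesium channel (-2.31, adjusted p 2.47e-11), fell, with edgeR adjusted p of 0.00863 to 0.0152 for these genes and *Fxyd4*, and *Nr3c2* (-0.68, adjusted p 0.0112) and *Hsd11b2* (-0.83, adjusted p 0.0282) were not called. Nor were *Sgk1* (-1.03, adjusted p 0.0749), *Nedd4l* (-0.17, adjusted p 0.581) and *Prss8* (-0.31, adjusted p 0.386).

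Between CONV-Ern2-/- and COLONIZED-Ern2-/-, 17 of 55 listed genes were called, 11 higher and 6 lower in CONV-Ern2-/- (median 0.15), where 8.59% of all genes tested were called. *Aqp8* (4.75, adjusted p 1.38e-40), *Slc9a3r1*, the scaffold of NHE3 (1.48, adjusted p 1.19e-17), *Guca2a*, the surface peptide guanylin (1.09, adjusted p 1.19e-07), *Car4* (1.62, adjusted p 4.02e-07) and *Sgk1* (1.41, adjusted p 0.000556) rose, and *Hsd11b2* (-1.11, adjusted p 3.42e-05) and *Prss8* (-0.75, adjusted p 0.00293) fell, with edgeR adjusted p from 0.00266 (*Aqp8*) to 0.0404 (*Sgk1*). The *Sgk1* call held in 3 of 6 fits without 1 library and the *Prss8* call in 2 of 6. *Nr3c2* (0.37, adjusted p 0.165) and *Nedd4l* (0.44, adjusted p 0.0307) were not called. *Aqp8*, *Car4* and *Guca2a* are also in the surface colonocyte list. Between CONV-Ern2-/- and CONV-WT, 9 of 54 were called, 6 higher and 3 lower, where 3.03% of all genes tested were called, among them *Slc9a3r2* (-2.40, adjusted p 7.83e-08), *Kcnma1* (-2.35, adjusted p 5.69e-06), *Slc34a2*, a phosphate cotransporter (1.93, adjusted p 1.52e-05, held in 5 of 6 fits without 1 library), and *Guca2a* (1.20, adjusted p 1.66e-05), with edgeR adjusted p of 0.0617 to 0.0996. Not called between these groups were *Sgk1* (1.42, adjusted p 0.0763), *Hsd11b2* (0.60, adjusted p 0.392) and *Prss8* (-0.59, adjusted p 0.413). The same held for *Nr3c2* (0.49, adjusted p 0.498) and *Nedd4l* (0.43, adjusted p 0.527). None of the listed genes was called by DESeq2 or edgeR between CONV-WT and COLONIZED-WT (9 at an unadjusted p under 0.05) or between the GF groups (4 at that level), while *Slc9a3r2* and *Fxyd3* were called lower by DESeq2 in COLONIZED-Ern2-/- than in COLONIZED-WT (-1.22, adjusted p 0.000173, edgeR 0.119, held in 5 of 6 fits without 1 library, and -0.85, adjusted p 0.00193, edgeR 0.144, held in 2 of 6). By edgeR, 0 of the listed genes passed 0.01 in CONV-WT against GF-WT, 4 in COLONIZED-WT against GF-WT, 1 in CONV-Ern2-/- and 2 in COLONIZED-Ern2-/- against GF-Ern2-/-, 2 between CONV-Ern2-/- and COLONIZED-Ern2-/- and 0 between CONV-Ern2-/- and CONV-WT. Over all genes it called 22, 630, 4, 27, 35 and 0, in the same order. For the genotype label over all 3 states, 2 of 55 listed genes were called, both lower, where 1.63% of all genes tested were called. *Slc9a3r2* was at -1.51 (adjusted p 7.54e-08, edgeR 0.00385) and *Fxyd3* at -0.84 (adjusted p 0.00202, edgeR 0.0312), each called in 18 of 18 fits without 1 library.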

How the data were processed

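The deposited table holds raw counts per gene, which the authors made from stranded 75-cycle single-end reads with STAR on mm10, per the submitters' processing notes. Whether counting used strand is not given in the sources used here. Each comparison was fitted on its own 6 libraries with DESeq2 1.42.0 in R 4.3.3 (Wald test, adjusted p under 0.01), interactions on 12 libraries and the genotype term on 18. edgeR 4.0.16 (quasi-likelihood), TMM size factors, a minimum of 10 counts in 3 libraries, a replicate block, covariates, a joint fit and leaving out libraries were alternatives. Independent filtering was first run at alpha 0.01, and the default of 0.1 was adopted after these genes' results had been seen, which changed none of their calls. The genes and lists were chosen with earlier results of these data known. Named were the 10 genes, up to 4 called genes of the wider list per comparison with the smallest adjusted p, *Nr3c2*, *Hsd11b2*, *Sgk1*, *Nedd4l* and *Prss8*, the 3 genes most like each of the 10, and *Ern2*. A further gene that this rule names is not reported here. Other names were chosen after their values were seen. Likeness used log2(normalized count + 1). Only the DESeq2 and edgeR fits of COLONIZED-WT against GF-WT were tried on simulated counts. The simulation placed no change in low-count genes, and the interaction, genotype, covariate and leave-one-out fits were not simulated.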

Additional observations from a re-analysis of the deposited data

How the results depend on the processing

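Of 25 called values, none reversed under any alternative run. The edgeR test kept 1, and its counts of these genes against GF-WT were 0 (CONV-WT) and 1 (COLONIZED-WT), and 0 in CONV-Ern2-/- against GF-Ern2-/-, COLONIZED-Ern2-/- against GF-Ern2-/-, CONV-Ern2-/- against COLONIZED-Ern2-/- and CONV-Ern2-/- against CONV-WT. Over all genes edgeR called 22, 630, 4, 27, 35 and 0, in the same order. With the library total, which is lower in the CONV groups, as a covariate, 12 of 25 calls were lost and the counts were 2 in CONV-WT against GF-WT (*Best2* lower and *Slc12a2* higher), 2 in COLONIZED-WT against GF-WT (*Scnn1a* and *Scnn1g*, lower), 2 between CONV-WT and COLONIZED-WT (*Cftr* and *Slc12a2*, higher) and 2 between CONV-Ern2-/- and CONV-WT. With the Y-linked pattern as a covariate 7 were lost, and the counts were 1 in COLONIZED-WT against GF-WT and 2 between CONV-Ern2-/- and COLONIZED-Ern2-/-. All 18 libraries in 1 fit lost *Scnn1a* (adjusted p 0.0209) and *Scnn1b* (0.116) and gained *Slc9a2* (0.00323) in COLONIZED-WT against GF-WT, and gave 5 in CONV-Ern2-/- against GF-Ern2-/-, 2 against COLONIZED-Ern2-/- and 2 against CONV-WT. TMM size factors and the count minimum each lost 1 call. Without the libraries whose *Ern2* counts went against the label, 1 gene was called between the GF groups and 1 for the genotype label over all states, and against GF-Ern2-/-, of which 1 library is left, COLONIZED-Ern2-/- lost *Scnn1g* and gained *Scnn1b* (adjusted p 5.34e-05) and *Best2* (4.96e-05), both lower. Leaving out 1 library gave 5 to 7 in CONV-WT, 3 to 6 in COLONIZED-WT, 3 to 6 in CONV-Ern2-/- and 5 to 7 in COLONIZED-Ern2-/- against GF, 0 to 1 between CONV-WT and COLONIZED-WT, 2 to 5 between CONV-Ern2-/- and COLONIZED-Ern2-/-, 1 to 4 between the CONV genotypes and 0 to 1 between the COLONIZED genotypes. The causes were not tested.

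Same-numbered libraries did not deviate together in every pair (r from -0.28 to 0.63), and the labels do not say that a number stands for a batch. In COLONIZED-Ern2-/- against GF-Ern2-/- (r 0.09 to 0.49) and CONV-WT against COLONIZED-WT (0.09 to 0.19), each library's best partner had the same number. With a replicate block, 3 genes were called between CONV-Ern2-/- and CONV-WT, and 1 of 25 calls was lost (*Scnn1b* between CONV-Ern2-/- and COLONIZED-Ern2-/-). The block also called *Slc9a2* (adjusted p 3.05e-21) and *Slc26a3* (1.98e-41) lower in COLONIZED-WT against GF-WT, *Atp12a* lower in CONV-Ern2-/- (0.00189) and *Best2* lower in COLONIZED-Ern2-/- (6.06e-05) against GF-Ern2-/-, and, between the CONV genotypes, *Slc9a3* (0.00144) and *Slc9a2* (0.000392) higher.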
